A study of Rattus norvegicus with 17 samples.

Results

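Hba-a1 and Hbb, the rat genes for the adult alpha and beta chains of hemoglobin, were followed as 2 of the 32494 genes (Ensembl identifiers ENSRNOG00000029886 and ENSRNOG00000058105) counted in 17 rat spinal cords. They were selected on their known log2 fold changes between the study's groups and taken by name as a gauge of red cell RNA in the cord. Their levels and fold changes are therefore a description with no p-value, and so are group differences in the ratio of the 2 genes, which follow from their fold changes. A test was kept for their agreement from rat to rat within groups.

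Each rat gave 1 library, made from ribosome-depleted total RNA of cervical, thoracic and lumbar cord blocks put together with the pia-arachnoid, which carries the surface vessels. All rats were female Sprague-Dawley, 10 to 12 weeks old, had surgery on the back 72 h earlier and had an electrode in the nucleus raphe magnus (NRM), a serotonin-rich cell group of the brainstem midline. Group A (4 rats) had sham injury and no stimulation, and group B (3 rats) had a moderate contusion of the thoracic cord (spinal cord injury, SCI) and no stimulation. Group C (3 rats) had the contusion and 2 h of stimulation, group D (2 rats) had both plus 1 mg/kg of pimozide, and group E (5 rats) had sham injury and 2 h of stimulation. Pimozide blocks serotonin and dopamine receptors and was given for its action on serotonin receptors. The treatment label of group E reads as unstimulated, whereas its sample names and the study design give it as stimulated, and it was treated as such. The methods used here mention no flushing of blood from the vessels, so the libraries may hold blood of the cord as well as cord tissue. None of the neuronal, glial and endothelial markers listed for this check could be matched to a row of the table, so the labelled tissue was not checked against them.

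Hemoglobin is a tetramer of 2 alpha and 2 beta chains around heme, and the 2 chains are encoded on different chromosomes. Their mRNAs are made in erythroblasts of the marrow, remain in reticulocytes after the nucleus is lost, and decay as the red cell matures. Expression of both is driven by the erythroid factors GATA1 and KLF1 and by general factors at the CCAAT and TATA boxes. In a bulk tissue library globin RNA can come from blood held in the vessels or leaked from them, and some expression by neurons and glia has also been described. These sources cannot be told apart by the globin level, nor can fewer cells from less globin RNA in each.

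Hba-a1 and Hbb lie on separate chromosomes and moved together in these rats. Whether the sequence upstream of the genes has a part in that was not tested. The 250 bases before each start site are shown as a description only. They come from RefSeq on the GRCr8 build, matched by symbol, at chr10:15842581-15842830 for Hba-a1 and chr1:167663722-167663971 for Hbb, both on the minus strand. Capitals mark every match, on either strand, to 5 spellings. AGATAA and also TGATAA are forms bound by GATA1, CACCC is the core bound by KLF1, CCAAT is the box of that name, and ATAAA was searched as a TATA-like element.
Hba-a1: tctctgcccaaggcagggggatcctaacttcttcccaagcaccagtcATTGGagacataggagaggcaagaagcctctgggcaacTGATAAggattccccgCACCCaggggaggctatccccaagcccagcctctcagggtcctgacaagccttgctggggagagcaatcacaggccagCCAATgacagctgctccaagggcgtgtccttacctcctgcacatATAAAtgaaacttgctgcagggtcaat
Hbb: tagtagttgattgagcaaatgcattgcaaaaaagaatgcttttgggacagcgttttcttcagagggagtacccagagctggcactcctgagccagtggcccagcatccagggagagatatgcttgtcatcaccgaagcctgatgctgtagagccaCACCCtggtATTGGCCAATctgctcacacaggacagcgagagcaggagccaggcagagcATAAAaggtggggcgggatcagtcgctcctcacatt
The Hba-a1 window held TGATAA beginning 165 bases before the start, CACCC at 149, CCAAT at 71, CCAAT on the opposite strand at 203 and ATAAA at 27. The Hbb window held CACCC at 95, CCAAT at 81 directly beside an opposite-strand CCAAT at 86, and ATAAA at 36, with neither GATA spelling in this window. Over 33469 rat promoters of the same length, TGATAA was present in 8.0%, with 10.3% for AGATAA, 49.2% for CACCC, 34.0% for CCAAT and 39.3% for ATAAA, so each spelling occurs upstream of many genes. The window of the second alpha gene, Hba-a2, matched that of Hba-a1 at 241 of 250 positions. That likeness is a warning on identity too: in RefSeq the alpha symbols stand as synonyms of each other, and short reads from such near copies may be split between rows or dropped.

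Libraries held 9852873 to 14137717 counts, with TMM scaling factors of 0.966 to 1.05. Levels are given as CPM, the counts scaled to a common library size, after this adjustment. Rats numbered 69 to 76 (1 in group A, both in group D and 1 in group E) stood apart in number from the 13 rats numbered 82 to 95, and the contrasts are also given within the latter where their values or calls moved. The sources used here do not say what the numbers mark.

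Hba-a1 was abundant and uneven. In group A it was at 74.6 CPM in rat 70, 389 in rat 82, 353 in rat 83 and 236 in rat 84. In group B it was at 101, 147 and 117 CPM in rats 91, 94 and 95. In group C it was at 210, 266 and 635 CPM in rats 89, 90 and 93. Sham rats thus spanned both the lowest value of the study, in rat 70, and the highest outside rat 93, while the 3 injured unstimulated rats were close together. In group D rats 75 and 76 had 115 and 84.9 CPM. In group E rats 69, 85, 86, 87 and 88 had 212, 108, 96.3, 189 and 216 CPM. Group E fell into no tight range and covered the values of group B.

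Hbb gave nearly the same picture. Its level in group A was 73.3, 376, 351 and 196 CPM in the same order of rats, and in group B it was 90.5, 133 and 116 CPM. In group C Hbb was at 179, 249 and 525 CPM. Rat 70 was again the lowest and rat 93 the highest of the 17. In group D Hbb was at 120 and 79.7 CPM, and in group E at 193, 98.8, 79.4, 206 and 217 CPM.

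**Figure D1:**
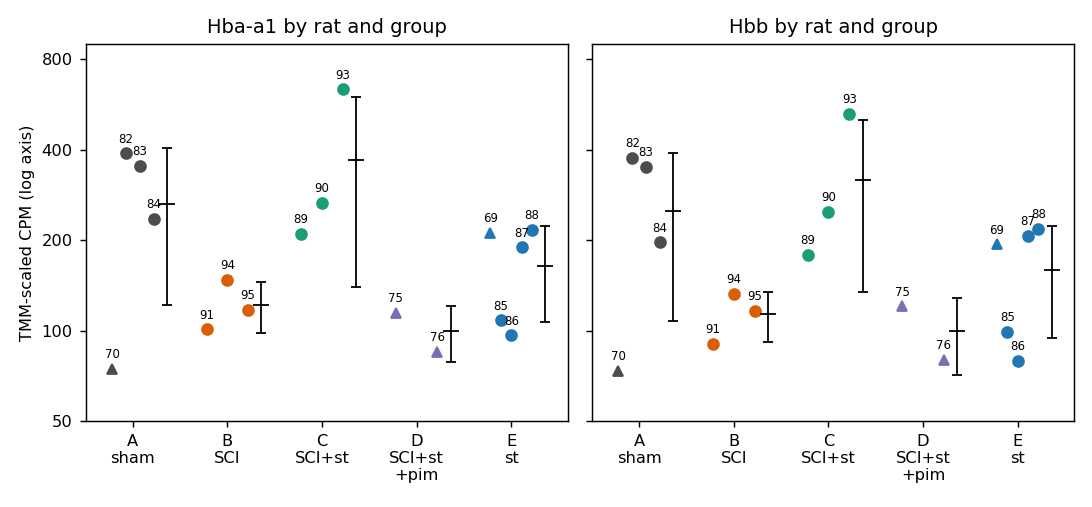
Hba-a1 (left) and Hbb (right) in each of the 17 rats, as TMM-scaled CPM on a log axis. Groups are A sham, B injured, C injured and stimulated, D the same with pimozide, and E stimulated; numbers are rat numbers, triangles are rats 69 to 76, circles rats 82 to 95, and black bars show the mean ± SD. Group C sits above group B in both panels, and rat 70 of group A sits far below the other 3 sham rats.

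The order of the group means was the same for both chains. Hba-a1 was at 370 ± 231 CPM in group C (SD, n = 3), 263 ± 142 in group A (n = 4), 164 ± 57.8 in group E (n = 5), 122 ± 23.5 in group B (n = 3) and 99.7 ± 21.0 in group D (n = 2). Hbb stood at 318 ± 183 CPM in group C, 249 ± 142 in A, 159 ± 64.7 in E, 113 ± 21.3 in B and 100 ± 28.7 in D. Neighbours in this order overlapped for both genes at every step. Over the 17 rats the highest level was 8.51 times the lowest for Hba-a1 and 7.16 times for Hbb.

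Both genes varied more within groups than most. The SD of log2 CPM around the group means was 0.74 for Hba-a1 and 0.76 for Hbb, at the 95.3 and 95.7 percentiles of the 15460 genes that passed the filter on low counts, whose median was 0.19. Neither gene was low, and mean levels of 209 and 193 CPM ranked 735th and 844th among those genes. The spread was largest in relative terms in groups A and C, with coefficients of variation for Hba-a1 of 53.8% and 62.4%, against 19.3% in group B, 21.0% in D and 35.2% in E.

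The alpha and beta levels followed each other from rat to rat. Across the 17 rats log2 CPM of the 2 genes gave Pearson's r = 0.990 and Spearman's rho = 0.975, given as a description since it takes in the group differences on which the genes were selected. Without the 2 rats farthest from the median, 93 and 70, r was 0.987. Within the 13 rats numbered 82 to 95 it was 0.989. The relation was as close within groups, where deviations from the group means gave r = 0.987 and rho = 0.978 (permutation p = 5e-05 for each, permuting within groups), and r = 0.985 without the same 2 rats (permutation p = 0.00026). Both genes encode chains of 1 protein and share each library's scaling, so a close relation was foreseen and the p adds little to r. P-values of the other correlations here are not printed, since those take in the group differences.

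**Figure D2:**
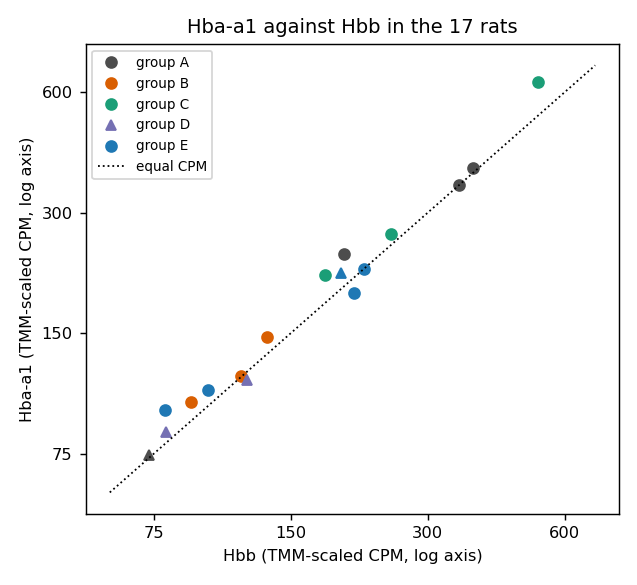
Hba-a1 against Hbb in the 17 rats, both as TMM-scaled CPM on log axes, coloured by group, with the dotted line marking equal CPM. Triangles are rats 69 to 76. All points lie close to the line over a range of 8.51-fold for Hba-a1.

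The ratio of the 2 rows was far steadier than either level. Dividing one row by another of the same library removes the scaling, although gene length does not enter, so the ratio is comparable between rats and says nothing about which chain had more mRNA molecules. It ran from 0.918 in rat 87 to 1.21 in rat 86, both of group E, with a median of 1.07. Its SD on the log2 scale was 0.12 over the 17 rats, beside 0.86 for the Hba-a1 level and 0.85 for the Hbb level.

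Its spread is set beside counting error as a description, since separate rats and library preparations can differ by more than counting. The alpha share of the summed alpha and beta counts was 51.9% over all rats. The lowest share was 47.8% in rat 87, with a 95% Wilson interval of 46.3% to 49.4%, and the highest was 54.8% in rat 86, with an interval of 52.9% to 56.8%. The interval left out 51.9% in 9 of 17 rats, and chi-square per degree of freedom was 8.79. These intervals cover counting error only, since the reads carry no molecular identifiers. Shares on both sides of the pooled value occurred within groups A, B, C and E.

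**Figure D3:**
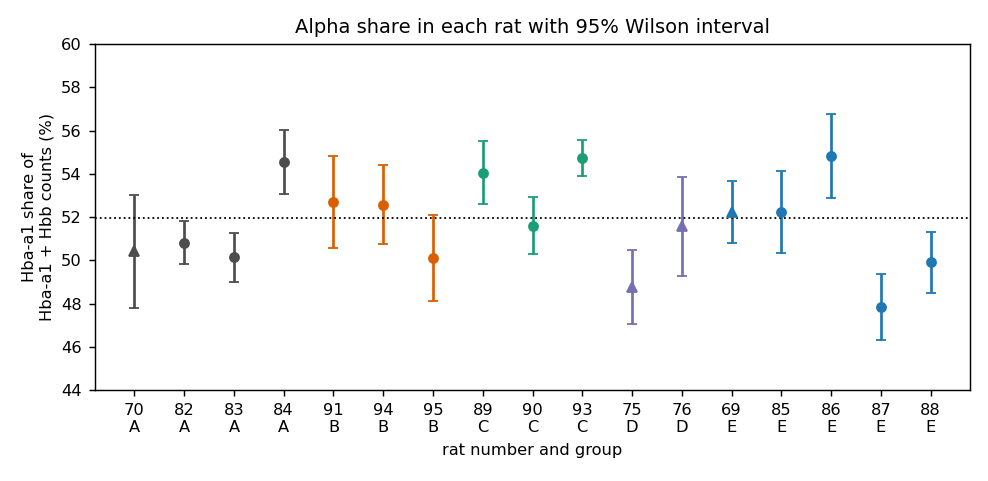
Share of Hba-a1 in the summed Hba-a1 and Hbb counts of each rat, in percent, with the 95% Wilson interval. The axis does not start at 0, the dotted line is the share over all rats (51.9%), colours mark groups and triangles are rats 69 to 76. Rats 87 (47.8%) and 86 (54.8%), the extremes, are both in group E.

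On the single rows group differences in the ratio lay within 2 SE of 0, while on summed alpha and beta rows, given further on, some were larger beside their SE. Mean single-row ratios were 1.06 ± 0.0919 in group A, 1.08 ± 0.0617 in B, 1.15 ± 0.0750 in C, 1.01 ± 0.0799 in D and 1.06 ± 0.112 in E (SD). The difference in mean log2 ratio was 0.02 (SE 0.0772) for ±SCI(0), injury without stimulation (B against A), and 0.10 (SE 0.0735) for ±st(SCI), stimulation in injured rats (C against B). It was -0.19 (SE 0.0979) for ±pim(st/SCI), pimozide in injured stimulated rats (D against C), and -0.0040 (SE 0.0909) for ±st(0), stimulation without injury (E against A). It was 0.11 (SE 0.0815) for ±st/SCI(0), both against neither (C against A), and 0.12 (SE 0.0879) for ±SCI(st), injury in stimulated rats (C against E). The 8 injured rats against the 9 uninjured gave 0.03 (SE 0.0592). The nearest rats of groups C and D, which had the highest and the lowest mean, were rat 90 at 1.07 and rat 76 at 1.06.

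3 further adult globin rows were counted, and each moved with Hba-a1 and Hbb. Hba-a2, the second alpha gene, ran from 49.4 CPM in rat 70 to 479 in rat 93. LOC103694857, a beta-type gene, ran from 15.0 to 136 CPM in the same rats, and Hbb-b1, another adult beta gene, from 7.27 CPM in rat 76 to 62.1 in rat 93. Pearson's r of log2 CPM with the mean of Hba-a1 and Hbb was 0.992 for Hba-a2, 0.982 for LOC103694857 and 0.954 for Hbb-b1 over 17 rats, as a description, since near copies can share reads. The 5 rows took 0.0216% of all counts in rat 70 and 0.181% in rat 93.

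In coefficient of variation, Hba-a2 over Hba-a1 was less even than Hba-a1 over Hbb, at 9.29% against 8.32%. Beside counting error it was not: chi-square per degree of freedom was 7.64 for the Hba-a2 share of both alpha rows, against 8.79. For the summed alpha share, on larger counts, it was 10.5. Hba-a2 over Hba-a1 ran from 0.587 in rat 86 to 0.861 in rat 87, the same rats that held the highest and the lowest ratio of Hba-a1 to Hbb. With all alpha rows summed over all beta rows, those rats had 1.34 and 1.30, and the ratio of sums ran instead from 1.20 in rat 75 to 1.54 in rat 93, with a coefficient of variation of 6.25% against 8.32% for the single rows. On these sums the 3 rats of group C (1.40, 1.40 and 1.54) all lay above the 5 of group E (1.24 to 1.35). They also lay above the 3 rats of group B (1.30 to 1.39) and the 2 of group D (1.20 and 1.26), and overlapped group A (1.23 to 1.42). The gap to group B was narrow, with rat 89 of group C at 1.396 and rat 91 of group B at 1.388. The log2 difference of group C was 0.15 (SE 0.0517) from group E, 0.11 (SE 0.0551) from group B and 0.15 (SE 0.0645) from group A. Group D against C differed by -0.23 (SE 0.0585), while B against A (0.03, SE 0.0525) and E against A (-0.0013, SE 0.0490) lay within 1 SE of 0. These are descriptions, as for the single rows.

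The 6 contrasts are given next as log2(FC) with their SE from edgeR's quasi-likelihood fit to all 17 rats, with calls at a false discovery rate under 0.05 and an absolute log2(FC) above 1. Contrasts that share a group are not independent: group C enters 4 of them and group A 3. The members' own calls are only set beside the share of all genes called, because these contrasts were known when the genes were chosen.

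In ±SCI(0) the fitted values of both chains lay below 0. Hba-a1 had a log2(FC) of -1.11 (SE 0.465) and Hbb -1.14 (SE 0.484), and neither was called, where 5.30% of all tested genes were. Of the 12 pairs of an injured and a sham rat, the injured rat was higher in 3 for each gene, and every one of these involved rat 70. Among rats 82 to 95 the groups did not overlap, as was so for 39.1% of tested genes, log2(FC) was -1.42 for Hba-a1 and -1.44 for Hbb, and both genes were called, with 5.16% of genes. The study's own kind of test, an edgeR exact test on the 2 groups alone, called both as well, with 3.02% of all genes.

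In ±st(SCI) every rat of group C lay above every rat of group B. The log2(FC) was 1.61 (SE 0.493) for Hba-a1 and 1.49 (SE 0.512) for Hbb, and group means stood in ratios of 3.04 and 2.81. Groups did not overlap for 6.15% of tested genes. The quasi-likelihood fit called 0% of genes here, with 476 genes at an unadjusted p under 0.05, and DESeq2 also called 0. The exact test on the 2 groups alone called both globins among 43 genes (0.132%). Without rat 93 the log2(FC) was 0.98 for Hba-a1 and 0.93 for Hbb.

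Under pimozide, in ±pim(st/SCI), both rats of group D lay below all 3 of group C, as the groups did without overlap for 18.0% of tested genes. The log2(FC) was -1.89 (SE 0.577) for Hba-a1 and -1.66 (SE 0.594) for Hbb. Neither was called, with 0.0259% of genes called in all, while the exact test on the 2 groups alone called both along with 0.249% of genes. Both pimozide rats are numbered 75 and 76 and all rats of group C 89 to 93, so drug and rat number cannot be told apart in this contrast by rats alone. A term for the 2 runs of numbers, estimated from groups A and E, moved the values to -1.42 and -1.13. Without rat 93 they were -1.26 and -1.10.

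Stimulation without injury, ±st(0), gave lower mean values with wide overlap. The log2(FC) was -0.68 (SE 0.393) for Hba-a1 and -0.65 (SE 0.409) for Hbb, neither was called and 0% of genes were, with 1297 at an unadjusted p under 0.05 and 16 called by DESeq2. Among rats 82 to 95, all 4 stimulated rats were below all 3 sham rats for Hba-a1, where 9.24% of genes did not overlap, but not for Hbb, and the log2(FC) was -1.10 and -1.04, with neither called. The sign of the globin change with stimulation was thus positive in injured and negative in uninjured rats, and the difference between these contrasts was not tested.

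In ±st/SCI(0) the mean difference was small beside its error, at 0.49 (SE 0.445) for Hba-a1 and 0.35 (SE 0.464) for Hbb, with neither called against 7.13% of genes. It rested on 1 rat, since without rat 93 it was -0.14 and -0.21. Among rats 82 to 95 it was 0.18 and 0.04. In ±SCI(st) Hba-a1 had 1.17 (SE 0.420) and was called, and Hbb had 1.00 (SE 0.438) and was not, beside 8.31% of genes called. Hba-a1 was not called by DESeq2 on all 17 rats (1.18) or with a term for the runs of rat numbers (1.04, SE 0.456). Among rats 82 to 95 both were called, at 1.28 and 1.08, with 7.75% of genes. Of 15 pairs, the group C rat was higher in 13 for Hba-a1 and in 12 for Hbb. The exact test on the 2 groups alone also called Hba-a1 and not Hbb, with 4.23% of all genes. Without rat 93 the log2(FC) was 0.54 and 0.44, and neither was called. Leaving out rat 90, 85, 86 or 87 also ended the call of Hba-a1, at 1.36, 1.05, 1.03 and 1.23.

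**Figure D4:**
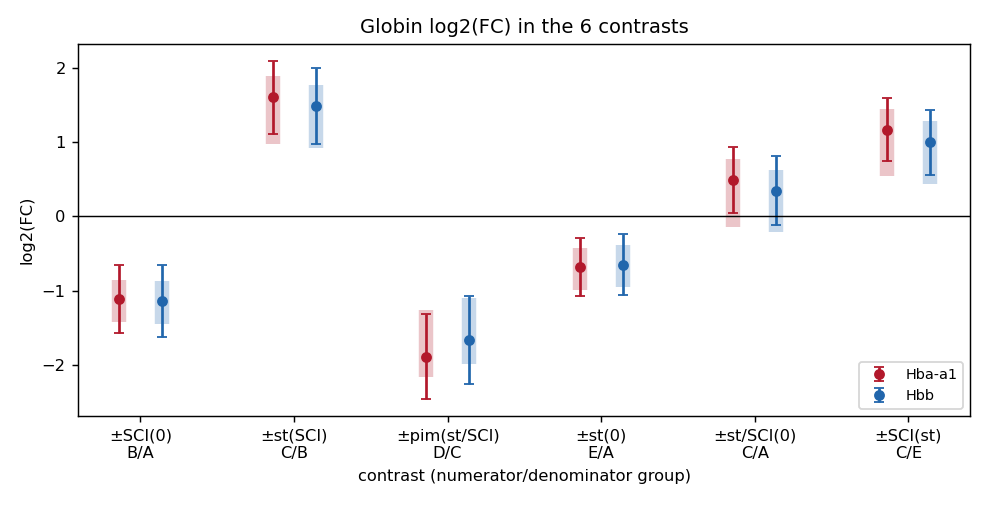
Fitted log2(FC) of Hba-a1 (red) and Hbb (blue) in the 6 contrasts, numerator over denominator group, with points and whiskers for the estimate ± SE. Pale bars show the range when each rat of the 2 groups is left out in turn. Both genes share the sign in every contrast, and in ±st/SCI(0) the pale bars cross 0, reaching -0.14 and -0.21.

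Of all other genes, Alas2 followed the globins most closely. Alas2 encodes the erythroid form of the first enzyme of heme synthesis, and its log2 CPM had r = 0.973 with the mean of Hba-a1 and Hbb over 17 rats (0.974 for deviations from group means), the only one of 15455 genes above 0.9. The median gene had r near 0. Alas2 was at 3.23, 15.2, 20.1 and 11.6 CPM in rats 70, 82, 83 and 84 of group A. It was at 4.77, 8.37 and 5.87 CPM in group B and at 12.6, 13.8 and 37.2 CPM in group C. Group D had 5.99 and 4.63 CPM, and group E had 8.25, 4.30, 4.55, 9.67 and 10.1. Rat 70 was lowest and rat 93 highest, as for the globins.

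The 5 next closest were red cell genes also, although other genes of the red cell lists followed the globins less closely. Slc4a1, the anion exchanger band 3 of the red cell membrane, had r = 0.832 (0.827 within groups), Ahsp, the chaperone of free alpha chains, 0.828 (0.728), and Rhd, the Rh blood group protein, 0.828 (0.765). Hemgn, a nuclear protein of erythroid precursors, and Kel, the Kell blood group protein, both had 0.823 (0.776 and 0.790 within groups). Epb42, a protein of the membrane skeleton, had 0.740 (0.562 within groups). Klf1, a transcription factor of red cell precursors, had 0.589 (0.315), Car1 0.544 (0.309), Aqp1 0.496 (0.376) and the transcription factor Nfe2 0.472 (0.325). The remaining 4 of the top 10, among them ENSRNOG00000019183 (r = 0.822) and ENSRNOG00000013280 (r = 0.818), had no name available here. These coefficients are a description: the genes share library and depth, and over 17 rats they take in the group differences for which the named genes and the globins were selected.

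Slc4a1 did not order the rats quite as the globins did. In group C it was at 21.5, 28.4 and 41.4 CPM in rats 89, 90 and 93, against 1.98, 11.1, 25.4 and 16.8 CPM in rats 70, 82, 83 and 84 of group A. In group B it was at 5.60, 7.12 and 5.10 CPM, in D at 11.4 and 4.36, and in E at 3.91, 3.83, 2.73, 9.29 and 12.2. Rat 82, second in the study for both globins, had less Slc4a1 than all 3 rats of group C, while rat 83 lay inside their range. Ahsp was at 4.17, 6.63 and 5.12 CPM in group C, 0.734, 1.64 and 0.867 in group B, and 0.313 (3 counts), 2.27, 4.46 and 5.23 in group A. Rats 83 and 84 thus lay inside the range of group C for Ahsp, while only rat 83 of them did so for Slc4a1.

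Other blood genes came from lists of red cell, platelet and neutrophil genes, of which only those named by the study as changed in these same rats could be matched, so neither their direction, the share of them called nor the size of their change is independent evidence. The 13 red cell genes other than globins summed to 9.27 to 76.9 CPM in group A, 18.5 to 27.1 in B, 72.1 to 122 in C, 21.0 to 32.1 in D and 13.8 to 43.0 in E. Their mean log2 level had r = 0.785 with the globins over the 17 rats and 0.692 within groups. The globin level less that of this list, on the centred log2 scale, averaged -0.77 in group C, with -1.10 and -1.14 in rats 89 and 90 and -0.06 in rat 93. It averaged 0.18 in group A, 0.12 in B, -0.31 in D and 0.37 in E, and ran within groups from -0.80 to 0.96 in A and from -0.47 to 1.49 in E. Genes found changed between these groups, at lower counts than the globins, can show larger changes by that choice alone.

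Platelet and granulocyte genes had lower values of r, weak within groups, and the difference between the lists was not tested. The 5 platelet genes, among them Itga2b, the platelet fibrinogen receptor subunit, Mmrn1 and Tubb1, had r = 0.610 (0.355 within groups). The 11 neutrophil granule genes, led by the calcium-binding S100a9 and S100a8 and by Ngp, had r = 0.515 (0.332 within groups). For single genes r ran from 0.472 to 0.973 in the red cell lists, 0.455 to 0.597 in the platelet list and 0.209 to 0.593 in the granule list. Within groups the ranges were 0.244 to 0.974, 0.0116 to 0.445 and 0.111 to 0.488. S100a9 was at 40.1, 52.4 and 32.6 CPM in group C, 10.6, 6.73 and 7.32 in B, and 1.77, 5.80, 9.78 and 29.7 in A. It was at 13.0 and 9.90 CPM in D and at 2.72, 15.7, 3.64, 34.2 and 14.2 in E. Rat 93, the highest for globin, was the lowest of group C for S100a9 and for Itga2b (7.73 CPM against 10.4 and 10.3). Summed granule levels ran from 6.56 to 95.6 CPM in group A, 20.4 to 29.3 in B, 99.9 to 171 in C, 28.2 to 41.3 in D and 7.65 to 86.2 in E. The part of these other blood cells in the globin levels was not tested.

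**Figure D5:**
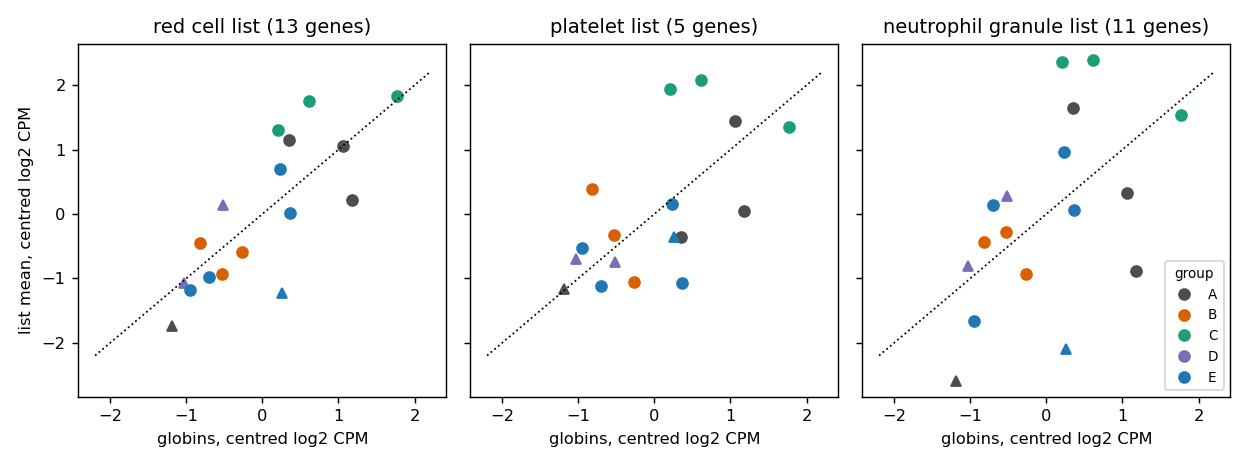
Mean log2 CPM of the red cell (13 genes), platelet (5) and neutrophil granule (11) lists against the mean log2 CPM of Hba-a1 and Hbb in each rat, both centred on their mean over 17 rats. Colours are groups, triangles are rats 69 to 76 and the dotted line marks equal change. Group C lies on or above the line for the red cell list (r = 0.785), and for the other lists its rats 89 and 90 lie above the line and rat 93 below it.

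The calls of the lists are given as counts, from which nothing is read, since their genes were named because the study found them changed in these rats. In ±SCI(st) 3 of 5 adult globin rows, Alas2, 7 of 7 red cell membrane genes, 3 of 3 erythroid regulators and 1 of 2 red cell cytosol genes were called higher, where 7.34% of all tested genes were. All 5 platelet genes and 8 of 11 granule genes were called higher as well. The median log2(FC) was 1.17 for the globin rows, 2.07 for the membrane genes (Aqp1, a water channel, and Epb42 among them), 1.99 for the regulators (Hemgn, Nfe2 and Klf1), 1.90 for the platelet genes and 2.46 for the granule genes, beside -0.02 over all tested genes. The cytosol genes Ahsp and Car1, a carbonic anhydrase, had a median of 1.76.

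In ±st/SCI(0) none of the globin rows, Alas2 or the 2 cytosol genes was called, while 1 of 7 membrane genes, 1 of 3 regulators, 2 of 5 platelet genes and 2 of 11 granule genes were called higher, where 6.70% of all tested genes were. The globin rows had a median log2(FC) of 0.49 there, the membrane genes 0.99, the platelet genes 1.43 and the granule genes 1.83, beside -0.02 over all genes. In ±SCI(0), ±st(SCI), ±pim(st/SCI) and ±st(0) the quasi-likelihood fit called no gene of these lists. The globin medians in those 4 contrasts were -1.02, 1.58, -1.88 and -0.65, and the membrane medians -1.22, 2.10, -1.93 and -1.13. Platelet medians were -0.77, 2.24, -2.15 and -0.63 and granule medians -1.03, 2.49, -2.27 and -0.40, so the medians of the other blood cell lists had the same signs. All stand beside medians over all tested genes of -0.02, 0.0039, -0.02 and 0.0086.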

How the data were processed

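RNA was sequenced from the spinal cords of 17 rats. The authors trimmed reads with Trim Galore 0.4.1 and aligned them with STAR 2.5.0a, whose gene counting gave the deposited whole-number counts per Ensembl gene, not normalized. The methods give an Rnor_5.0 genome, the submitters' processing notes rn6 (Rnor_6.0), and the strand setting of the counting is not given in the sources used here. Counts were analysed with edgeR 4.0.16 in R 4.3.3: filterByExpr kept 15460 of 32494 genes, libraries were scaled by TMM, and 1 quasi-likelihood model with a coefficient per group gave the 6 contrasts with Benjamini-Hochberg adjustment. The script was tested on simulated data. The relation of the 2 genes was tested by 100000 permutations within groups. Planned exact permutation tests of their ratio between groups are not printed, since the ratio follows from the fold changes on which the genes were selected. DESeq2 1.42.0, exact tests, other scalings and filters, and leaving out each rat were alternatives. The members and lists were chosen with earlier results of these data known.

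Genes chosen to be named were Hba-a1, Hbb, the other adult globin rows, the 3 most abundant genes of each red cell, platelet or neutrophil list, and the 10 genes most like the globins. Some of these are given without values or identifiers of their own. Only 99 identifiers could be paired with a symbol, through the names the study gives its changed genes, so the lists for embryonic globins, other globin-fold proteins, heme clearance, lymphocytes, endothelium and spinal cord matched 0 genes and were not analysed here. Of the other lists, 5 of 9 adult globins, 1 of 15 heme synthesis, 7 of 19 membrane, 3 of 12 regulator, 2 of 12 cytosol, 5 of 8 platelet and 11 of 11 granule genes matched. The groups are separate rats. Total counts of 9852873 to 14137717 mean that 1 CPM is about 9.85 counts in the shallowest library.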

Additional observations from a re-analysis of the deposited data

Results flagged for a closer look

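The alpha to beta ratio of rat 84 in group A was 1.20, and it stood apart from the other 3 sham rats (1.02, 1.03 and 1.01) by more than Dixon's 95% limit for 4 samples, a limit that chance passes in about 1 of 20 groups. It was the only one to pass among 6 sets of values checked, Hba-a1, Hbb and their ratio in groups A and E. With all alpha rows over all beta rows its ratio was 1.42, again the highest of the group. Without this rat the difference in log2 ratio was 0.08 for ±SCI(0), 0.06 for ±st(0) and 0.17 for ±st/SCI(0).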

How the results depend on the processing

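Over other scalings, filters and tests, Hba-a1 and Hbb kept the sign of their log2(FC) in the 6 contrasts. Leaving out 1 rat at a time turned it only in ±st/SCI(0), where Hba-a1 ran from -0.14 to 0.77 and Hbb from -0.21 to 0.63. In the same refits the log2(FC) of Hba-a1 lay between -1.42 and -0.86 for ±SCI(0), between 0.98 and 1.89 for ±st(SCI), and between -2.17 and -1.26 for ±pim(st/SCI). It lay between -0.99 and -0.43 for ±st(0) and between 0.54 and 1.46 for ±SCI(st). Calls were less stable. Hba-a1 stayed called in ±SCI(st) in 3 of the 8 fits without 1 rat of group C or E, in 8 of the 17 without any 1 rat, lost also without rat 84, 91, 94 or 95 of other groups, and in 11 of 13 other settings, and was lost with DESeq2 and with a term for rat numbers. Hbb was called there in 0 of 8 and 1 of 13, the latter with rats 82 to 95 only, and in the 17-rat quasi-likelihood fit it passed neither the fold limit nor the false discovery rate. In ±SCI(0) both were called in 1 of 7 fits, that without rat 70. In ±pim(st/SCI) the exact test on the 2 groups called both with common then tagwise dispersions and neither with estimateDisp, a pair of settings compared after the data were seen.

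Genes called over the whole table differed by method and with the rats used. For ±pim(st/SCI) the quasi-likelihood fit called 4, the exact test in the same model 44, DESeq2 32, the fit with no filter 17, the 2 groups alone 9 by quasi-likelihood, 81 by exact test and 66 with estimateDisp, and the fit with a term for rat numbers 1. For ±st(0) it called 0 against 15 by exact test, 16 by DESeq2, and 28 and 18 by the exact tests on 2 groups. For ±st(SCI) it called 0 against 3 by quasi-likelihood on 2 groups and 43 and 33 by those exact tests. Leaving out 1 rat, the quasi-likelihood fit called 0 to 36 genes in ±pim(st/SCI), the most without rat 75 and the fewest without rat 76, where group D is 1 rat and is assumed to vary like the other groups, with 24 without rat 82, and 0 to 49 in ±st(0), the most without rat 82. It called 664 (without rat 89) to 1415 (without rat 93) in ±st/SCI(0) against 1103, 812 to 1554 in ±SCI(st) against 1285 (without the same rats), and 557 to 889 in ±SCI(0) against 820. The cause was not tested. The correlation of Hba-a1 with Hbb stayed between 0.988 and 0.992 without any 1 rat. With 1 rat left out, the difference in single-row log2 ratio ran from -0.27 to -0.11 for ±pim(st/SCI), where both ends leave 1 rat in group D. It ran from 0.05 to 0.15 for ±st(SCI), 0.07 to 0.17 for ±SCI(st) and 0.08 to 0.17 for ±st/SCI(0). The range crossed 0 for ±SCI(0) (-0.0078 to 0.08) and ±st(0) (-0.05 to 0.06). For injured against uninjured rats it was 0.0071 to 0.06. No paired analysis was possible because the rat numbers are not shared between groups.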
